A study of Mus musculus with 6 samples.

Results

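The heavy-chain variable genes of the mouse (Ighv) were described as a group, with 185 features whose symbol begins with Ighv among the 32285 genes of the count matrices. Their use was read in single plasma cells and B cells from the colon of wild-type mice, 1 library for each of 6 groups. Pseudo germ-free (pGF) mice had received antibiotics for 4 weeks (day 0), or 4 weeks of antibiotics and then antibiotics together with dextran sodium sulfate (DSS), which damages the lining of the colon when drunk, for 2 or 7 days. Specific pathogen free (SPF) mice were untreated controls (day 0) or had received DSS for 2 or 7 days. All cells had been sorted by flow cytometry for the leukocyte protein CD45 after removal of the epithelium, and the labels give neither the strain nor the number of mice behind a library. Each group is 1 library, so replicate error is unknown for every difference below and comparisons are between libraries. The study asked how the gut flora shapes the colon's immune cells during DSS injury.

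Each B cell joins 1 variable (V), 1 diversity (D) and 1 joining (J) segment on a chromosome to make its heavy chain, and pairs it with a light chain built from a light-chain V and J segment. The choice of Ighv gene sets part of the heavy chain's antigen-binding surface, and all descendants of a B cell keep it. Gut plasma cells, the final stage of that lineage, mostly secrete immunoglobulin A, whose constant region is encoded by Igha, against the flora. A gene used by many plasma cells can stand for many separate B cells or for the descendants of a few.

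All 185 features were matched by identifier to the GENCODE M21 annotation of GRCm38 (mm10), where they span chr12:113572927-116010093, or 2.44 Mb, with 183 of them on the minus strand. The annotation gives 113 as V genes, 70 as V pseudogenes and 2 as related V-like genes, in 16 families, of which family 1 is the largest with 93 members. Ighv genes can be very alike, and 70 of the 162 members with an annotated V segment had a relative with at least 95% identity. The V segments below belong to the genes that led in pGF day 0 (Ighv1-26), pGF day 7 (Ighv6-6) and pGF day 2 (Ighv1-53), each with its closest relative, to show which bases tell them apart. Capitals mark bases that differ within a pair, and the letters run 5′ to 3′ on the minus strand of mm10 from the first base of the V segment proper. They are the reference alleles, and alleles differ between mouse strains.

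Ighv1-26 (chr12:114788372-114788665): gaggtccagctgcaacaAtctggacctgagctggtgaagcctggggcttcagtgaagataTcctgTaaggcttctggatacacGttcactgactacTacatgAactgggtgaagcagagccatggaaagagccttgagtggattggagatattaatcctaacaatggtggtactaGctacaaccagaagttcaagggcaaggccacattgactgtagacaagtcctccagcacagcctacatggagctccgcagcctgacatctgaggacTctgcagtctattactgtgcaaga
Ighv1-18 (chr12:114682632-114682925): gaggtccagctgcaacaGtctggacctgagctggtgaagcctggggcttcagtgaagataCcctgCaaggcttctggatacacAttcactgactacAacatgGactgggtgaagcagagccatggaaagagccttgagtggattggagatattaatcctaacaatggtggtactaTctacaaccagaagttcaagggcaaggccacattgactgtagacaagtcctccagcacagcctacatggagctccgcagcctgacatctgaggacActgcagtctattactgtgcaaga
Ighv6-6 (chr12:114434788-114435087): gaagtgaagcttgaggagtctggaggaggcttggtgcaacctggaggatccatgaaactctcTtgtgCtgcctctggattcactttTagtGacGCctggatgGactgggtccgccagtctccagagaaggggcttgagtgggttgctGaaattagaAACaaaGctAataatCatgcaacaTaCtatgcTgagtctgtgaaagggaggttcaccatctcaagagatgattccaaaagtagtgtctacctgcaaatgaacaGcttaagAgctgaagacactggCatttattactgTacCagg
Ighv6-3 (chr12:114391712-114392010): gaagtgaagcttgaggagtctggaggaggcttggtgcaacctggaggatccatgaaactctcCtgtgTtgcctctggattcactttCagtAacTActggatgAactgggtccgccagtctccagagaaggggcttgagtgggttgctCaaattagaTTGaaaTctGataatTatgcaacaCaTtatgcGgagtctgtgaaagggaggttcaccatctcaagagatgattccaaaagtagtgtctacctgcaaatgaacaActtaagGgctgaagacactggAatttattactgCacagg
Ighv1-53 (chr12:115158403-115158696): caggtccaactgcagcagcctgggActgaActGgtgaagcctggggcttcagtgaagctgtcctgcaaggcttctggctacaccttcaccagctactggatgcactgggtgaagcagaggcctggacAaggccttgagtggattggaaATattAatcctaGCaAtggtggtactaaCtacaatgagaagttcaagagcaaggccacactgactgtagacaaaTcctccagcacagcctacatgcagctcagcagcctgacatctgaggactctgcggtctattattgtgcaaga
Ighv1-72 (chr12:115757984-115758277): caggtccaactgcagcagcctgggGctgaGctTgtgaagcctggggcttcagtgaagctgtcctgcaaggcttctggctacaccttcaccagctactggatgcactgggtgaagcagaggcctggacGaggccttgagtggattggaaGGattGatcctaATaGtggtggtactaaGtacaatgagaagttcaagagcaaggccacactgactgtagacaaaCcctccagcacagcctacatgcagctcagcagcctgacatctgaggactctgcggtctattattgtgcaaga

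Ighv1-26 and Ighv1-18 differed at 8 of 294 bases, between positions 18 and 271. Ighv6-6 and Ighv6-3 differed by 21 substitutions and 1 unmatched base over 300 bases, and Ighv1-53 and Ighv1-72 by 12 substitutions over 294. A read that lies within the V segment and covers none of the capitals fits both genes of a pair. Counts of close relatives are uncertain to that extent. The parts of the genes outside these segments were not compared. How the authors' counting treated such reads is not given in the sources used here.

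The 6 matrices held 40523 barcodes and between 23335071 and 52772901 UMIs (unique molecules) per library. Plasma cells were gated by raw counts of Jchain, Mzb1 and 6 further plasma cell markers. A plasma cell was called for an Ighv gene when it held at least 3 Ighv UMIs and at least 80% of them came from that gene. The pGF libraries had 539, 75 and 283 called cells at days 0, 2 and 7 of 590, 79 and 298 gated, and the SPF libraries had 963, 317 and 82 of 1198, 354 and 84. In called cells the leading gene took a median of 99.7% or more of the Ighv UMIs in every library. Between 5 and 131 barcodes were shared by any 2 libraries, and of the 2 barcodes called as plasma cells in both libraries of a pair, 0 carried the same Ighv gene. Intervals below are exact 95% Clopper-Pearson intervals that cover counting error only. Cells descended from the same B cell are not independent, so the intervals can be too narrow.

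Ighv use was concentrated most in pGF day 7, where Ighv6-6 alone was called in 18.7% of plasma cells (14.4 to 23.8%, 53 of 283). In pGF day 0 the leading gene was Ighv1-26 with 15.0% (12.1 to 18.3%, 81 of 539), and in pGF day 2 it was Ighv1-53 with 10.7% (4.72 to 19.9%, 8 of 75). In SPF, Ighv1-26 led on all 3 days, with 8.31% (6.64 to 10.2%, 80 of 963) at day 0, 7.26% (4.65 to 10.7%, 23 of 317) at day 2 and 10.98% (5.14 to 19.8%, 9 of 82) at day 7. The 5 most used genes together covered 36.9%, 34.7% and 47.3% of called cells in pGF at days 0, 2 and 7 and 30.3%, 24.0% and 39.0% in SPF. The leading share was higher in pGF than in SPF on each day, with intervals that did not overlap at day 0 and overlapped at days 2 and 7.

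**Figure D1:**
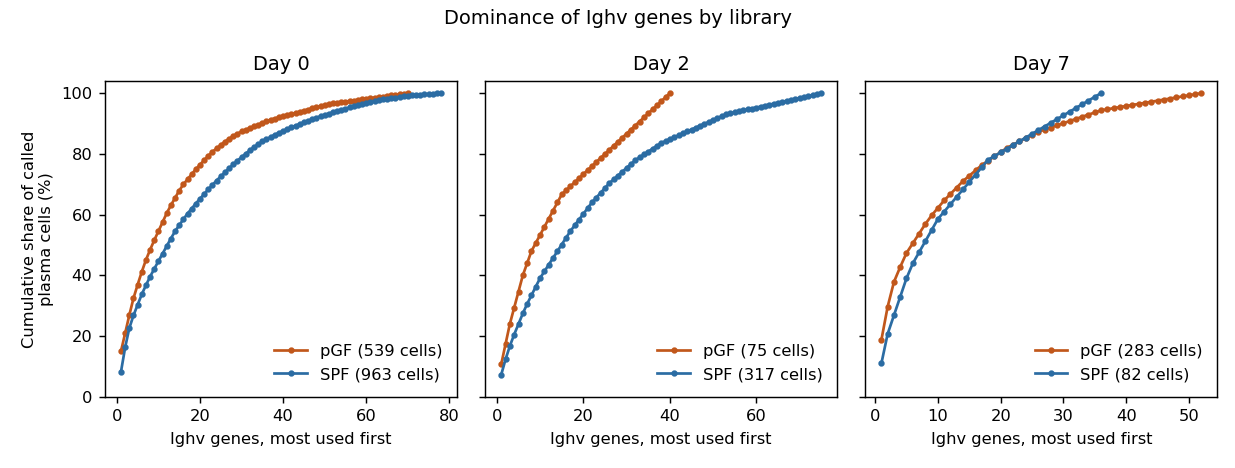
Cumulative share of called plasma cells (vertical axis, percent) over Ighv genes ordered from the most to the least used (horizontal axis), with 1 panel per day, pGF in orange and SPF in blue. The pGF curve starts higher on each day, at 15.0%, 10.7% and 18.7% against 8.31%, 7.26% and 10.98% in SPF.

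The effective number of Ighv genes is the number of equally used genes that would give the same chance of drawing 2 cells with the same gene, and it falls as a few genes dominate. It was 21.7, 35.1 and 15.5 in pGF at days 0, 2 and 7 and 32.3, 44.6 and 27.7 in SPF. The log2 ratio of pGF over SPF was -0.57 at day 0, -0.34 at day 2 and -0.83 at day 7, so pGF was less even in all 3 pairs. Among cells with at least 5000 UMIs the effective number was 21.7, 40.7 and 14.2 in pGF and 35.3, 44.8 and 26.9 in SPF. It was again lower in pGF on each day, with a smaller gap at day 2 than over all called cells. By this measure over cells, both arms had the highest value at day 2 and the lowest at day 7. The order of the days differed by other measures. Pielou evenness, which runs to 1 when all used genes are used alike, was 0.834, 0.933 and 0.828 in pGF and 0.879, 0.915 and 0.922 in SPF. At day 2 it was higher in pGF, and in SPF it was highest at day 7, but it depends on the number of cells, which was 75 there. Brought to 50 cells in every library, the expected number of different Ighv genes was 26.1, 30.8 and 24.0 in pGF and 29.4, 32.3 and 27.5 in SPF, lower in pGF on each day.

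Cells with the same Ighv gene often also shared a light-chain V gene. Of called cells, 95.6% to 97.96% had a light-chain V gene called by the same rule, which gave 196, 55 and 111 different pairs of Ighv and light-chain V gene in pGF at days 0, 2 and 7 and 314, 194 and 56 in SPF. When each pair was counted once per library, the effective number of Ighv genes was 48.6, 43.7 and 49.6 in pGF and 53.1, 62.0 and 46.7 in SPF. The pGF to SPF log2 ratio was then -0.13, -0.51 and 0.089, so the sign at day 7 turned. Ighv1-26 then led in 5 of the 6 libraries, with 7.65% and 6.31% of pairs in pGF at days 0 and 7 and 5.73%, 5.67% and 8.93% in SPF at days 0, 2 and 7. In pGF day 2 Ighv1-53 kept the lead, with 12.7% of 55 pairs (5.27 to 24.5%). Counting once limits each gene to its number of light-chain partners, so it tends to even out use whatever the origin of the cells. The number of pairs also depends on how many cells were sampled. The alternative of counting pairs once was added after the data were seen.

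**Figure D2:**
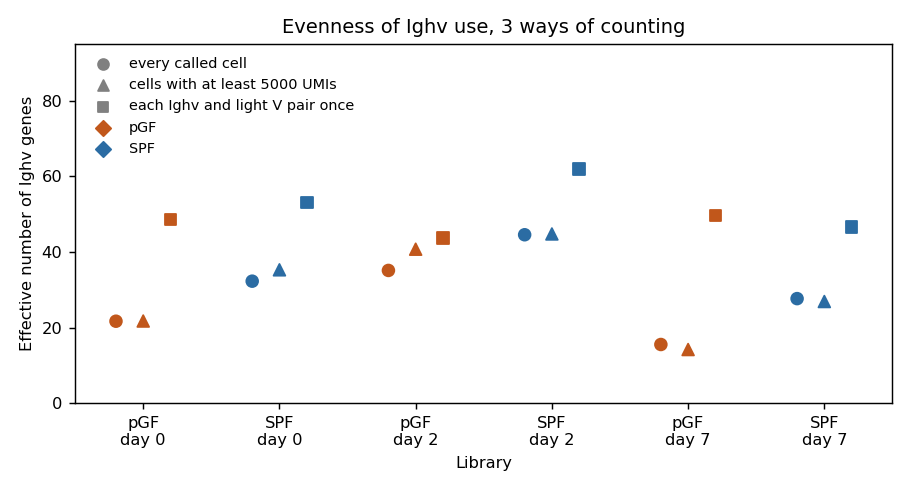
Effective number of Ighv genes (vertical axis) in each library (horizontal axis; pGF orange, SPF blue), from every called cell (circles), from cells with at least 5000 UMIs (triangles) and with each pair of Ighv and light-chain V gene counted once (squares). Circles run from 15.5 to 44.6 and squares from 43.7 to 62.0.

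In pGF day 7 a few pairs held most cells of the leading genes. Ighv6-6 was paired with Igkv8-30 in 46 of its 52 cells with a light-chain call, which is 17.0% of all such cells in the library, and the joining gene was Ighj2 in all 40 cells where it could be called. Ighv2-2 was paired with Igkv3-12 in 22 of 28 cells, with Ighj3 in 22 of 22. Ighv1-64 was paired with Igkv4-57-1 in 20 of 23 cells, with Ighj4 in 20 of 20. Ighv2-9-1 was paired with Igkv8-21 in 11 of 13 cells, with Ighj1 in 11 of 11, and Ighv5-16 with Igkv15-103 in 8 of 8. The joined sequences that would tell whether such cells descend from 1 B cell were not analysed here.

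The lead of Ighv1-26 in pGF day 0 was spread over more partners. Its 81 cells held 15 different light-chain V genes, and the largest group, with Igkv1-110, had 34 of 80 cells, 18 of 34 with Ighj3. Other large groups of that library had a single joining gene. Ighv1-77 was paired with Igkv4-63 in 20 of 23 cells (Ighj2 in 20 of 20), Ighv1-72 with Igkv8-24 in 17 of 32 (Ighj2 in 17 of 17), Ighv2-9-1 with Igkv4-72 in 17 of 23 (Ighj4 in 17 of 17) and Ighv6-3 with Igkv1-135 in 19 of 32 (Ighj3 in 17 of 17). Cells in pairs seen at least 3 times made up 64.2% of cells with a light-chain call in pGF day 0 and 69.3% in SPF day 0, 23.6% in pGF day 2 and 33.3% in SPF day 2, and 59.0% in pGF day 7 and 28.8% in SPF day 7. These shares depend on how many cells were sampled, which was 72 and 80 in pGF day 2 and SPF day 7.

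The largest groups in SPF were as follows. Ighv9-3 with Igkv12-46 had 39 of 923 cells at day 0 (4.23%), Ighv1-12 with Igkv10-96 had 14 of 303 at day 2 (4.62%), all 13 callable cells with Ighj1, and Ighv1-39 with Igkv6-23 had 8 of 80 at day 7 (10.0%), all 8 with Ighj3. The day 0 group was shallow. Its cells had a median of 1995 UMIs, 28 of the 39 were under 5000, and called plasma cells of that library had a median of 27476. The next largest group there, Ighv1-62-2 with Igkv17-121, was also shallow, with a median of 2845 UMIs and 11 of 19 cells under 5000. In all, 208 of 1198 gated plasma cells of SPF day 0 were under 5000 UMIs, which is 17.4%. The share was 14.3% in SPF day 7 and 0.847% to 6.33% in the other libraries. Of the 231 SPF day 0 cells with mixed Ighv UMIs, 130 were under 5000 UMIs. The call leaves out mixed cells, and 17 of these 231 held mainly Ighv14-3 and Ighv5-17. With cells under 5000 UMIs left out, Ighv9-3 had 4.51% (40 of 887) in SPF day 0, against 7.996% (77 of 963) with them, and the effective number of that library was 35.3. The part of these shallow barcodes in the result beyond those values was not tested.

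Some pairs recurred across libraries. Of the different pairs seen over all libraries, 585 were in 1 library and 112 in 2. The pair of Ighv1-26 with Igkv5-48 was in all 6, with 9, 1 and 1 cells in pGF at days 0, 2 and 7 and 1, 2 and 1 in SPF. Pairs in 5 libraries were Ighv1-26 with Iglv1 (30 cells in all), Ighv1-55 with Igkv8-27 (30), Ighv1-39 with Igkv6-23 (22), Ighv1-53 with Igkv6-15 (16) and Ighv1-26 with Igkv6-23 (9). Frequently used genes meet more often by chance pairing, and whether these pairs recurred beyond that was not tested.

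Every Ighv member was accounted for. Over the 6 libraries, 132 of 185 had at least 1 UMI in a plasma cell and 86 were called in at least 1 of 2259 called cells. Of the 113 annotated V genes, 85 were called and 28 were not, and 9 of these 28 had no UMI at all in gated plasma cells. Of the annotated pseudogenes, Ighv1-2 alone was called, in 2 cells. There were 16 genes called in all 6 libraries and 5 in 1 library. With libraries weighted equally, Ighv1-26 was used most, in 8.64% ± 3.82 of called cells (SD over 6 libraries), between 4.95% and 15.0%. Ighv1-64 followed with 4.46% ± 2.58, then Ighv6-6 with 4.26% ± 7.18 and Ighv1-53 with 4.12% ± 3.65. From Ighv1-64 on, neighbours in this order do not differ beyond that spread, and the ranges of Ighv1-26 and of Ighv1-64 (1.33% to 8.13%) overlap. Ighv6-6 was in 0.371%, 0% and 18.7% of called cells in pGF at days 0, 2 and 7 and in 3.01%, 2.21% and 1.22% in SPF, and its mean rests on pGF day 7. Ighv1-75 was in 2.97%, 0% and 2.12% in pGF and in 3.53%, 2.21% and 1.22% in SPF. That profile was flatter, and below the one of Ighv6-6 in pGF day 7 alone.

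**Figure D3:**
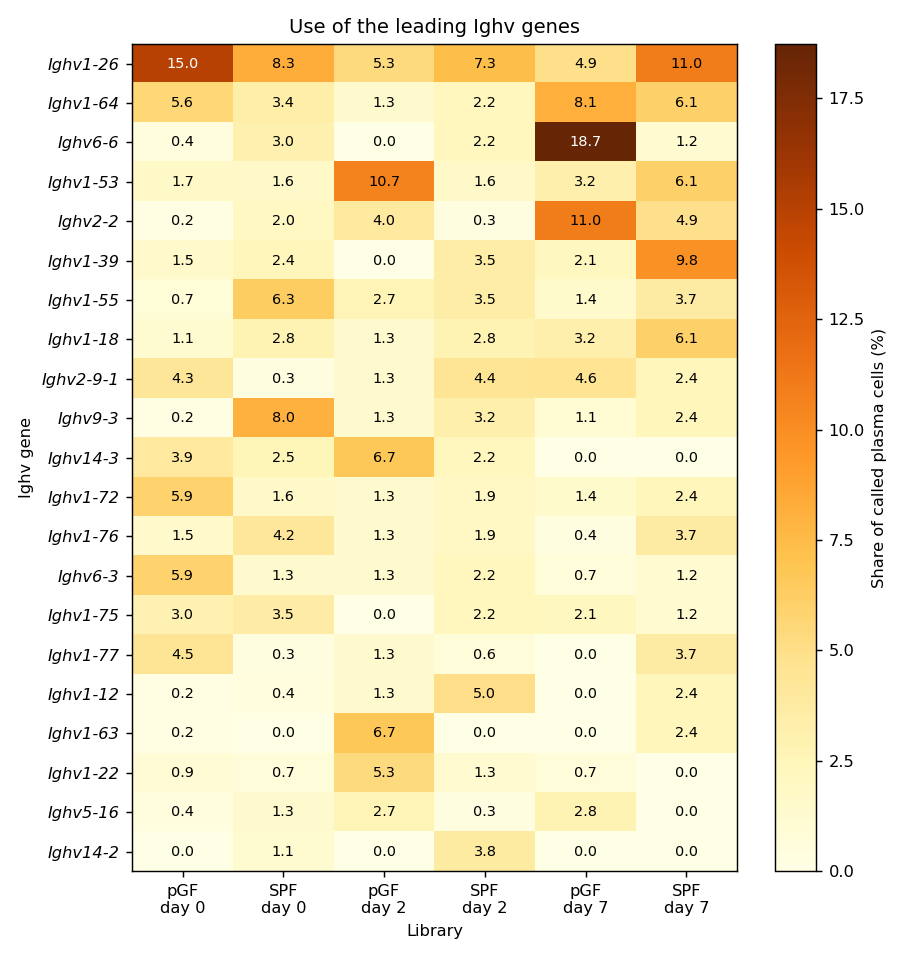
Share of called plasma cells (percent, colour and printed value) for 21 Ighv genes (rows, by mean share) in each library (columns, pGF left of SPF for each day). Ighv1-26 is at 4.95% or more in all 6 libraries, while Ighv6-6 reaches 18.7% in pGF day 7 and is at 3.01% or less in the others.

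At day 0, before DSS, Ighv1-26 led in both libraries, while shares of called plasma cells differed for several other Ighv genes. Of 83 Ighv genes called in either library, 18 (21.7%) had intervals that did not overlap, 9 higher and 9 lower in pGF. Ighv1-26 was in 15.0% of pGF and 8.31% of SPF cells. Ighv6-3 and Ighv1-72 were each in 5.94% of pGF cells (32 of 539), against 1.35% and 1.56% of SPF cells. Ighv1-77 was in 4.45% of pGF and 0.312% of SPF cells, and Ighv2-9-1 in 4.27% and 0.312%. The other genes higher in pGF were Ighv4-1, Ighv7-3, Ighv7-1 and Ighv1-85. In the other direction, Ighv9-3 was in 0.186% of pGF and 7.996% of SPF cells, and Ighv1-55 in 0.742% of pGF and 6.33% of SPF cells. Ighv1-76 was in 1.48% of pGF and 4.15% of SPF cells, and Ighv6-6 in 0.371% of pGF and 3.01% of SPF cells. Ighv9-4 and Ighv2-6 were called in 0 of 539 pGF cells, which at 3 cells of the total allows a share of up to 0.557% (the interval ends at 0.682%), against 19 and 16 of 963 SPF cells. Ighv1-34, Ighv1-62-2 and Ighv2-2 were also lower in pGF. With cells under 5000 UMIs left out, 16 of 83 genes had intervals apart (19.3%), all of them among the 18, and Ighv1-62-2 and Ighv2-6 no longer did. Ighv1-62-2 was then in 2 of 535 pGF cells (0.374%, 0.0453 to 1.34%) and 13 of 887 SPF cells (1.47%, 0.783 to 2.49%). Its V segment is identical to that of Ighv1-71, called in 3 pGF and 1 SPF cells at day 0, so calls of these genes are uncertain. Ighv2-6 was then in 0 of 535 pGF cells (the interval ends at 0.687%) and 11 of 887 SPF cells (1.24%, 0.621 to 2.21%). With pairs counted once, 0 of 82 genes had intervals apart at day 0, 0 of 77 at day 2 and 0 of 62 at day 7, on fewer counts and so with wider intervals. Ighv1-55, for example, was then in 2 of 196 pGF pairs (1.02%, 0.124 to 3.64%) and 14 of 314 SPF pairs (4.46%, 2.46 to 7.37%).

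At day 2, 2 of 79 genes (2.53%) had intervals apart, both higher in pGF. Ighv1-53 was in 10.7% of pGF cells (8 of 75) and 1.58% of SPF cells (5 of 317), with 7 different light-chain partners in the 8 pGF cells. With cells under 5000 UMIs left out its intervals overlapped, at 6 of 71 pGF cells (8.45%, 3.16 to 17.5%) and 5 of 303 SPF cells (1.65%, 0.538 to 3.81%). Ighv1-63 was in 6.67% of pGF cells (5 of 75) and 0 of 317 SPF cells, which at 3 cells of the total allows up to 0.946% (the interval ends at 1.16%), and 4 of its cells shared Igkv2-137 and Ighj4. Ighv14-3 was in 6.67% of pGF and 2.21% of SPF cells and Ighv1-22 in 5.33% and 1.26%, with overlapping intervals. On the SPF side, Ighv1-12 was in 1.33% of pGF and 5.05% of SPF cells, Ighv14-2 in 0% and 3.79%, and Ighv1-39 in 0% and 3.47%. An Ighv gene absent from the 75 pGF cells may still have had a share of up to 4.00%, at 3 cells of the total (the interval ends at 4.80%).

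At day 7, Ighv6-6 was the 1 gene of 62 (1.61%) with intervals apart, in 18.7% of pGF cells (14.4 to 23.8%) and 1.22% of SPF cells (0.0309 to 6.61%, 1 of 82). Ighv2-2 was in 10.95% of pGF and 4.88% of SPF cells, Ighv1-64 in 8.13% and 6.098%, and Ighv5-16 in 2.83% and 0%. Ighv1-39 was in 2.12% of pGF and 9.76% of SPF cells, Ighv1-26 in 4.95% and 10.98%, Ighv1-18 in 3.18% and 6.098%, and Ighv1-77 in 0% and 3.66%. The intervals of these genes overlapped, with 82 SPF cells behind them. Counted by pairs, Ighv6-6 was 3 of 111 in pGF day 7 (2.70%) and 1 of 56 in SPF day 7 (1.79%).

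Ighv1, the largest family, took most cells in 5 of the 6 libraries. Its share was 64.0%, 61.3% and 49.5% in pGF at days 0, 2 and 7 and 60.6%, 57.4% and 75.6% in SPF. At day 7 the intervals of pGF (43.5 to 55.5%) and SPF (64.9 to 84.4%) did not overlap, and they overlapped at days 0 and 2. The pGF day 7 library had 19.4% in family 6 (15.0 to 24.5%) and 15.9% in family 2 (11.8 to 20.7%), of which Ighv6-6 and Ighv2-2 made up most. With pairs counted once the Ighv1 share of pGF day 7 was 65.8%. Family 9, with Ighv9-3, held 11.7% of SPF day 0 cells (9.77 to 13.9%). Genes on the side of the locus far from the D segments, beyond the median position of the members, were used by 60.9%, 58.7% and 44.9% of pGF cells at days 0, 2 and 7 and by 57.1%, 48.6% and 69.5% of SPF cells.

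**Figure D4:**
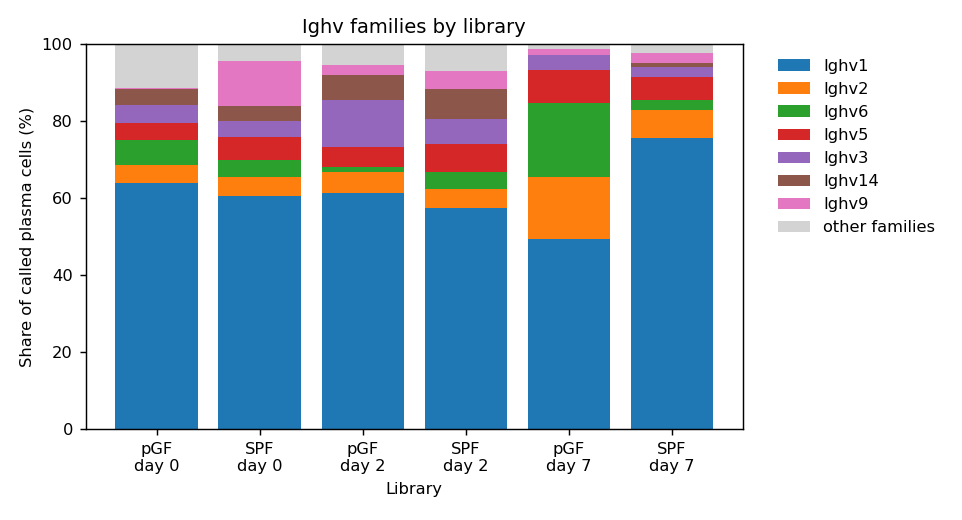
Share of called plasma cells by Ighv family (stacked bars, percent) in each library, with the 7 most used families in colour and all others in grey. The Ighv1 bar is lowest in pGF day 7 (49.5%), where families 6 and 2 hold 19.4% and 15.9%, and highest in SPF day 7 (75.6%).

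Likeness of Ighv use between libraries was measured with the Morisita-Horn index, which is 1 for identical use and 0 for no shared gene. It was highest between SPF day 0 and SPF day 2 (0.750) and lowest between pGF day 2 and pGF day 7 (0.340) over the 15 pairs of libraries. With a correction for the number of cells sampled, the highest was between SPF day 2 and SPF day 7 (0.860) and the lowest between pGF day 0 and pGF day 7 (0.395), so both extremes changed pairs. Between pGF and SPF the index was 0.627, 0.524 and 0.513 at days 0, 2 and 7, and 0.650, 0.689 and 0.589 with the correction, so the order of the days depended on it.

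Almost all called plasma cells made immunoglobulin A. Igha was the heavy-chain constant gene in 535 of 539, 73 of 74 and 276 of 283 cells in pGF at days 0, 2 and 7, and in 929 of 956, 313 of 316 and 80 of 82 in SPF. SPF day 0 also held 23 cells with Ighg1, a constant gene of immunoglobulin G, and pGF day 0 held 3. Among joining genes, Ighj2 was used by 47.3% of callable pGF day 0 cells (42.7 to 52.1%) and 24.5% of SPF day 0 cells (21.4 to 27.8%), while Ighj4 was used by 15.3% (12.1 to 18.9%) and 33.1% (29.6 to 36.6%). In summed plasma cells the levels, as counts per the same fixed total of plasma cell UMIs (CPM), were compared as log2 of (CPM + 10), which understates low genes, and a difference of at least 1 counted as 2-fold. Of the 8 constant genes, 6, 6 and 4 had a mean of at least 10 CPM at days 0, 2 and 7. Of these, 1, 0 and 1 were at least 2-fold higher and 3, 1 and 2 at least 2-fold lower in pGF. Over all genes tested, 1.01%, 2.64% and 2.43% were at least 2-fold higher and 1.75%, 2.04% and 2.63% lower in pGF. Ighg1 at day 0 had 224 CPM in pGF, against 2317 CPM in SPF (log2 -3.32), and at day 7 it had 818 CPM in pGF, against 11.7 CPM in SPF (log2 5.25). At day 7, 2 of 283 pGF cells and 0 of 82 SPF cells were called for Ighg1. All 4 joining genes passed that level on every day. Ighj2 at day 0 had 828 CPM in pGF, against 378 CPM in SPF (log2 1.11), and Ighj4 had 238 CPM in pGF, against 504 CPM in SPF (log2 -1.05). At day 2 both were higher in pGF, with log2 1.14 for Ighj2 and, for Ighj4, 545 CPM in pGF, against 222 CPM in SPF (log2 1.26). Of callable cells at day 2, Ighj4 was used by 33.9% in pGF (22.3 to 47.0%) and 21.8% in SPF (16.4 to 28.1%), with overlapping intervals. Ighj2 was used by 27.4% of these cells in pGF and 27.2% in SPF, so its higher level was not seen in shares of cells. No joining gene was 2-fold apart at day 7.

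Genes that act on the Ighv locus were low in plasma cells. None of 10 genes for recombination, class switching and hypermutation reached a mean of 10 CPM on any day. Rag1 and Rag2, the recombinase that joins V, D and J, and Dntt, which adds bases at the joints, had 0 UMIs in the summed plasma cells of all 6 libraries, which allows up to 3 in each. Of 5 germinal centre genes, Fas, a death receptor, was the 1 at that level. With 10 CPM added, Fas was less than 2-fold apart on each day. At day 7 it had 16.1 CPM in pGF (74 UMIs), against 6.76 CPM in SPF (11 UMIs), with log2 0.64 after that addition.

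Summed Ighv UMIs were not comparable between libraries. Shares of cells rest on calls made from the same UMIs, and how far these differences reach the shares was not tested. Ighv UMIs per heavy-chain constant UMI in plasma cells were 1.89, 0.485 and 0.298 in pGF at days 0, 2 and 7 and 1.47, 0.0495 and 0.969 in SPF. Light-chain V UMIs per light-chain constant UMI were 6.66, 3.29 and 2.53 in pGF and 6.83, 0.867 and 6.12 in SPF. The ratio of alpha and beta V to constant UMIs of the T cell receptor in cells gated as T or NK was 0.573, 0.306 and 0.212 in pGF and 0.493, 0.0571 and 0.399 in SPF. SPF day 2 was lowest in all 3 ratios, and gated plasma cells there had a median of 68.5 Ighv UMIs, against 551 to 4894 in the other libraries. The cause of this difference between libraries was not tested. Within a library the ratio also differed between Ighv genes with at least 5 called cells, from a median of 0.266 for Ighv1-7 to 3.21 for Ighv4-1 in pGF day 0, and from 0.271 for Ighv1-4 to 2.54 for Ighv3-1 in SPF day 0.

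**Figure D5:**
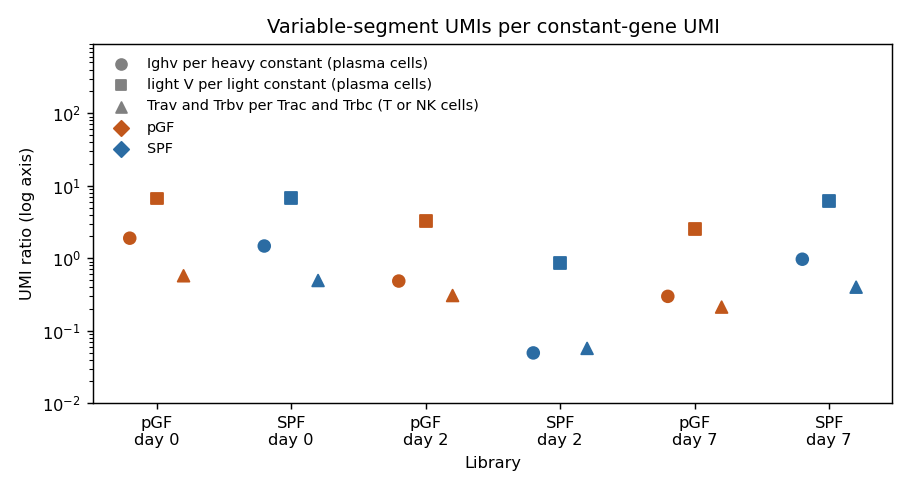
Variable-segment UMIs per constant-gene UMI (vertical axis, log scale) in each library (horizontal axis; pGF orange, SPF blue), for Ighv in plasma cells (circles), light-chain V genes in plasma cells (squares) and T cell receptor V genes in T or NK cells (triangles). All 3 ratios are lowest in SPF day 2, at 0.0495, 0.867 and 0.0571.

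Among all genes in summed plasma cells, 2.76% were at least 2-fold apart between pGF and SPF at day 0 (131 of 4748), 4.68% at day 2 (252 of 5382) and 5.05% at day 7 (229 of 4531). Of the Ighv members, 86, 67 and 64 passed the level of 10 CPM, and 57, 61 and 55 of them were at least 2-fold apart. At day 0, 24 were higher and 33 lower in pGF, against 1.01% and 1.75% of all genes. At day 2, 31 were higher and 30 lower, against 2.64% and 2.04%, and at day 7, 28 were higher and 27 lower, against 2.43% and 2.63%. Their median log2 difference was 0.14, 0.23 and -0.34, against -0.02, 0.07 and 0.14 over all genes tested. These counts describe members that passed the level and are no evidence of a difference between the arms beyond these libraries. The library ratios of V to constant UMIs above also differed between the arms, and their part in these counts was not tested. At day 7 the split of all calls depended on the scaling, with 48.0% of them higher in pGF here, against 36.5% when immunoglobulin genes were left out of the total, 34.0% with edgeR's TMM scaling and 65.3% with 1 CPM added in place of 10. The TMM scaling also put the day 7 median of all genes at -0.03 and that of the Ighv members at -0.61.

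B cells gave too few calls for a description of Ighv use. The gate held 9, 91 and 669 cells in pGF at days 0, 2 and 7 and 3, 12 and 271 in SPF, of which 1, 4 and 17 in pGF and 1, 0 and 19 in SPF were called. At day 7 the 17 pGF cells used 14 different Ighv genes and the 19 SPF cells used 16, with no gene in more than 2 cells. Medians of 0 or 1 Ighv UMI per B cell at days 2 and 7 set this limit. After thinning to 1000 UMIs per cell, 27.1% of pGF and 34.4% of SPF B cells at day 7 had an Ighv UMI, against 12.2% and 6.28% of T or NK cells, which do not make immunoglobulin. Of cells shallower than that, 31 pGF and 15 SPF B cells were left out.

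Ighv UMIs were also found in T or NK cells of every library, and their source was not tested. T or NK cells with at least 1 Ighv UMI were 96.7%, 18.7% and 26.0% in pGF at days 0, 2 and 7 and 85.1%, 21.6% and 16.8% in SPF, and after thinning to 1000 UMIs they were 50.0%, 8.28% and 12.2% in pGF and 41.5%, 7.95% and 6.28% in SPF. Few of them passed the call, with 1, 51 and 25 cells in pGF and 5, 2 and 20 in SPF. In pGF day 7 Ighv9-3 made up 28.0% of the Ighv UMIs of T or NK cells and 2.19% of those of plasma cells. Ighv6-6 made up 23.1% of the Ighv UMIs of T or NK cells and 20.5% of those of plasma cells, and 16 T or NK cells were called for it. Plasma cells after the same thinning had an Ighv UMI in 92.3% to 99.7% of cells.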

How the data were processed

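Single-cell RNA was measured with a 10x 5′ kit in 6 libraries of CD45+ colon cells. The deposited values are unscaled UMI counts for each gene in each barcode, made by the authors with Cell Ranger 6.1.2 on mm10, with R 4.1.3 and Seurat 4.1.1 also named, per the submitters' processing notes. V(D)J libraries were not analysed here, and 1 gene of the fixed lists is not reported here. The counts were used as deposited. Barcodes with under 200 genes or over 10% mitochondrial UMIs were dropped, and doublets were not called. The plasma gate asked for at least 5 Jchain UMIs, at least 1 Mzb1 UMI, and a plasma marker sum (Mzb1, Xbp1, Derl3, Tnfrsf17, Sdc1, Txndc5, Prdm1) of at least 3 and above those of T or NK, myeloid, epithelial and stromal markers. B cells and T or NK cells were gated by their own marker sums. A cell was called for an Ighv, light-chain V, Ighj or constant gene at 3 UMIs and 80% of that class. The effective number is the inverse of the unbiased Simpson index. Genes named were the 5 most used per library and the 3 with the largest difference in share each way per day; others named were chosen after their values were seen. The members and lists were chosen with earlier results of these data known. With 1 library per group no test across groups was run. V segments came from GENCODE M21, as the second exon without its first 11 bases. Alternatives covered the call, the gates, the filters, depth and scaling. The pipeline was tested on simulated data, and it used Python 3.11.15, numpy 2.4.6, pandas 2.3.3, scipy 1.17.1, matplotlib 3.10.9, edlib and R 4.3.3 with edgeR 4.0.16, the last for TMM factors.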

Additional observations from a re-analysis of the deposited data

Results flagged for a closer look

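The Ighv1 family's share of called plasma cells moved in opposite directions from day 0 to day 7, by -14.5 percentage points in pGF and by 15.0 points in SPF. Each arm has 1 library per day, and the difference between the arms was not tested. With pairs of Ighv and light-chain V gene counted once, the pGF day 7 share was 65.8%, against 49.5% over cells. In the other libraries the share counted that way stayed within its interval over cells.

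Ighv RNA also appeared in cells gated as T or NK for genes that were nearly absent from the plasma cells of the same library. Ighv1-75 had 408 UMIs in T or NK cells of pGF day 2, in 174 cells with 126 in the highest, and 25 of these cells were called for it, while plasma cells held 4 UMIs. Ighv4-1 had 976 UMIs in SPF day 7, all in 1 T or NK cell, and 0 in plasma cells. Ighv5-9 had 174 UMIs in T or NK cells of SPF day 7, in 160 cells with at most 4 each, and 0 in plasma cells, while ungated cells held 919, of which 598 were in 1 cell.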

How the results depend on the processing

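No paired analysis was possible because each group is 1 library. Counting each pair of Ighv and light-chain V gene once, an alternative chosen after seeing the data, gave leading shares of 7.65% in pGF day 0, 5.73% in SPF day 0 and 6.31% in pGF day 7. It gave effective numbers of 48.6 in pGF day 0, 53.1 in SPF day 0, 49.6 in pGF day 7 and 46.7 in SPF day 7, an Ighv1 share of 65.8% in pGF day 7, and a log2 ratio of 0.089 at day 7. Summed Ighv UMIs in place of cells gave an effective number of 20.2 in pGF day 2 and Ighv1 shares of 55.8%, 47.7% and 38.3% in pGF at days 0, 2 and 7. Genes at least 2-fold apart numbered 402 of 7298 at day 2 and 403 of 7180 at day 7 without immunoglobulin genes in the total. With 1 CPM added they numbered 511 of 5382 and 478 of 4531. The main setting had 252 of 5382 and 229 of 4531, with fewer genes past the level than without immunoglobulin genes in the total. B cells of pGF day 7 had an effective number of 21.6 with a call at 1 UMI, 105 without the cells of most UMIs and 21.5 by summed UMIs, and those of SPF day 7 had 30.8 by summed UMIs. The cause was not tested. The B cell values rest on 17 and 19 called cells, and thinning to 1000 UMIs left too few for a value. Leaving out a replicate was not possible with 1 library per group.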
